A study of Mus musculus with 16 samples.

Results

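MHC class I molecules display peptides from the inside of the cell to CD8 T cells. The immunoproteasome cuts proteins into peptides, the TAP transporter moves the peptides into the endoplasmic reticulum, tapasin holds the empty class I molecule beside TAP, and the loaded heavy chain travels to the cell surface with beta-2 microglobulin. Most of these genes are induced together by interferon gamma, and Nlrc5 is the transactivator that acts on class I promoters. The 10 genes described here were chosen by symbol, as the heavy chains H2-K1 and H2-D1, the light chain B2m, the transporter subunits Tap1 and Tap2, tapasin (Tapbp), the immunoproteasome subunits Psmb8, Psmb9 and Psmb10, and Nlrc5. All 10 were found among the 46078 genes of the count table, and all 10 passed the filter on low counts that left 14897 genes. The list was set by symbol, with earlier results of these data known.

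The genes were followed in cultured mouse juxtaglomerular (JG) cells, the renin cells of the kidney, which carried YFP under the renin promoter. Cells received miR-106b or, as the control, a microRNA precursor that does not occur in mammals, and were harvested 48 h later. Polyadenylated (polyA) RNA was sequenced in 4 control and 4 miR-106b libraries, and RNA bound to Argonaute2 (Ago2), the microRNA effector protein, was recovered by immunoprecipitation (Ago2-IP) for 4 control and 4 miR-106b libraries. The comparisons asked how the transfected microRNA changed the amount of each mRNA and its share in Ago2 complexes.

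The 16 libraries held between 2579086 and 9459585 counts each, and CPM below are counts scaled to library size, or, as normalized CPM, to a size corrected for composition (TMM). No read was counted on the renin gene Ren1 among 70668386 counts, where 3 counts, the limit that a count of 0 leaves, would be 0.0425 CPM (counting error only), and Akr1b7, another gene of renin cells, had 6 counts in all. Heart muscle transcripts were present in every library instead: 20 heart muscle genes made up 2.12% to 3.01% of the counts in polyA control libraries, 4.13% to 7.15% in polyA miR-106b libraries, and between 9.30% and 10.2% in all 8 Ago2-IP libraries. Renin, the defining marker of the labelled cells, was thus not detectable at this depth. The other 10 genes of the juxtaglomerular and mural marker list, which smooth muscle, pericytes or heart muscle also express, were all counted, from 163 counts for Cnn1 to 185278 for Des over the 16 libraries, with 37531 for Acta2, 12627 for Pdgfrb and 6487 for Rgs5. In bulk RNA, fewer cells of a type cannot be told apart from less RNA per cell.

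The sequences on which the comparison turns are the microRNA and the control regions of the members. The mature mouse miR-106b-5p (RefSeq, GRCm38.p6, chr5:138165787-138165807, minus strand) is printed 5′ to 3′ with its seed, bases 2 to 8, in capitals, since these bases pair with target mRNAs.
miR-106b-5p: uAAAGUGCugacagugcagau
A match to this seed in a 3′ untranslated region was searched as GCACTTT, or as CACTTTA, which pairs with bases 2 to 7 and has an A opposite base 1. None of the longest annotated 3′ untranslated regions of the 10 members (GENCODE M21, 55 bases in Psmb10 to 1197 in Nlrc5) held either string. Among the 13215 tested genes with such a region, whose median length was 1221 bases, 2940 (22.2%) held one or both. This says only that those letters were not in these annotated stretches.

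Class I promoters carry a conserved module in which an X box, bound by RFX and CREB family factors, stands before a Y box, bound by NF-Y, and Nlrc5 acts through factors assembled there. RefSeq promoters were at hand for 8 members, the exceptions being Tap2 and Nlrc5, and the 250 bases before each start were searched on both strands. The strings marked below are CCAAT, the core of the Y box (ATTGG on the other strand), TGACG, the core of the CREB part of the X box, and the interferon response element in 2 spacings, GAANNGAAA and the same string with 1 more A before the NN, the longer one added after the data were seen. The 200 bases before the RefSeq start of H2-K1 (chr17:34000334-34000533, minus strand), H2-D1 (chr17:35262894-35263093, plus strand) and B2m (chr2:122147487-122147686, plus strand) are shown 5′ to 3′ in GRCm38.p6 with these matches in capitals, since each heavy chain reaches the cell surface paired with B2m.
H2-K1: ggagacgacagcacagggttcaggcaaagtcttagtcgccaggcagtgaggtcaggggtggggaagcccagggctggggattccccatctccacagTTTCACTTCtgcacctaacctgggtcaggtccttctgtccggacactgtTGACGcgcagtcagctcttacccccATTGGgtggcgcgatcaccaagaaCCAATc
H2-D1: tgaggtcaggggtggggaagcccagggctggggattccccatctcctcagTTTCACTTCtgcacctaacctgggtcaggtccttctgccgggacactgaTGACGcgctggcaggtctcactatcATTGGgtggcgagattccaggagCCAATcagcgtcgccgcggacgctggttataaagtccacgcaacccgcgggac
B2m: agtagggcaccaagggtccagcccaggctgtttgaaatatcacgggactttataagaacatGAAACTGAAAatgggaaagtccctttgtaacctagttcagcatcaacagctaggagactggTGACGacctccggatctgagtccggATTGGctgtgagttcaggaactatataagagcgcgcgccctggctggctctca
In all 3 stretches TGACG was followed by ATTGG on the coding strand, from base 55 to base 26 before the start in H2-K1, 101 to 72 in H2-D1 and 78 to 49 in B2m. This arrangement with 15 to 30 bases between the strings was found, on either strand, in 161 (0.490%) of 32851 promoters. Of the spacings of the interferon element, GAANNGAAA stood in H2-K1 and H2-D1 and in 6.31% of all promoters, and the longer one stood in B2m, from base 139 to base 130 before the start, and in 2.98% of promoters. A kappaB consensus stood in H2-K1, H2-D1 and B2m and in 3.90% of promoters. Shifted by 46 bases, the H2-K1 and H2-D1 stretches were identical at 130 of 154 positions.

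Tap1 and Psmb9 lie head to head, and 225 bases separate their RefSeq starts (chr17:34187331-34187555, GRCm38.p6). The stretch is printed in the direction of Tap1, with Psmb9 running the other way from its left end, since both genes are read from it.
Tap1-Psmb9: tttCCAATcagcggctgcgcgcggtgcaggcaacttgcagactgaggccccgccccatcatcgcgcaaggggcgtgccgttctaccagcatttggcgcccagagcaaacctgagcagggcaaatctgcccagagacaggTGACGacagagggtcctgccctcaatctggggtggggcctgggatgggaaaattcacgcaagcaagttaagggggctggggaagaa
It held 1 CCAAT, next to the Psmb9 start, and 1 TGACG, and neither spacing of the interferon element. CCAAT was found in 33.8% and TGACG in 17.8% of all promoters. Tapbp also held CCAAT, and Psmb8 and Psmb10 held none of these strings. A match is a description of letters and not a binding site.

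In polyA RNA, 8 of the 10 members were higher in the miR-106b libraries than in the controls and none was lower (edgeR quasi-likelihood test, adjusted p under 0.05). Of all 14897 genes, 19.0% rose and 21.5% fell by the same rule. The median log2 fold change was 0.62 over the members and -0.05 over all genes tested. The immunoproteasome subunits Psmb8 and Psmb9 and the transactivator Nlrc5 rose most, and B2m and Tap1 did not pass the test. All 4 miR-106b libraries lay above all 4 control libraries for 7 members, against 16.8% of all genes. Without polyA miR-106b replicate 1, the lowest miR-106b library for 6 of the 10 members, 8 members were still called.

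**Figure D1:**
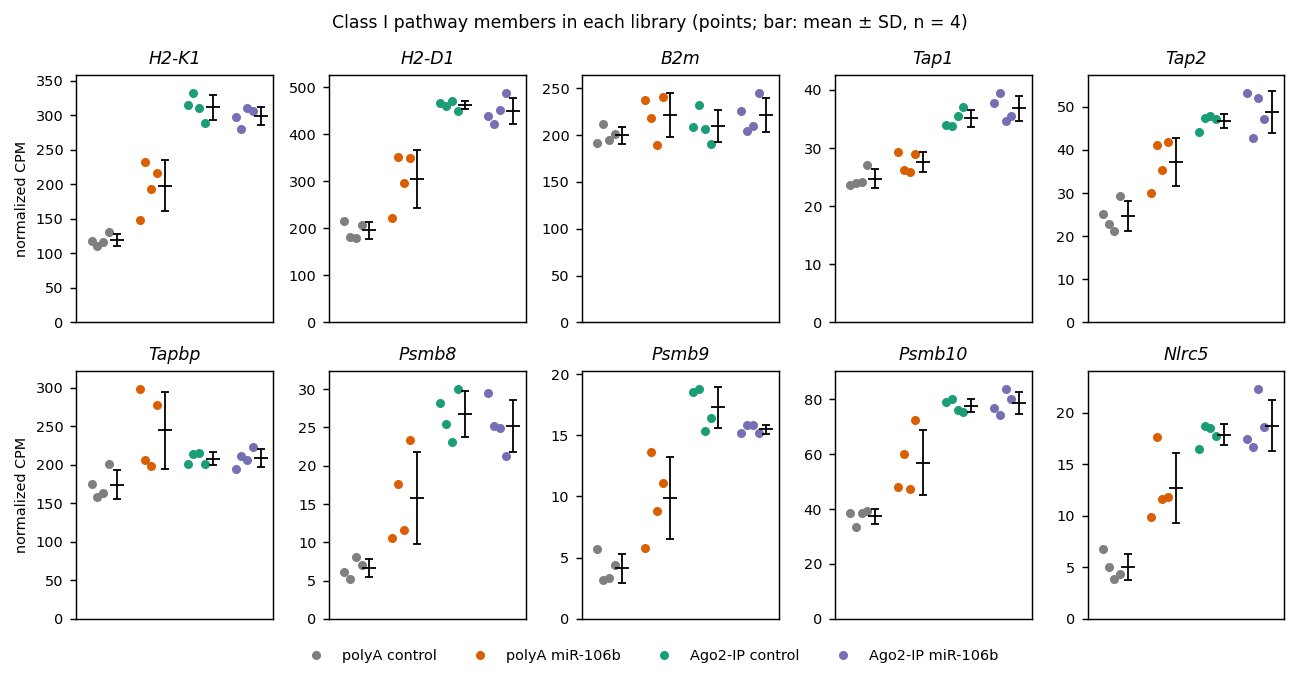
Normalized CPM of each member in each library, with the mean and SD of the 4 libraries of a group as a bar. Libraries were scaled within polyA RNA and within Ago2-IP RNA, so that the 2 kinds of RNA are not on 1 scale; the polyA miR-106b libraries of Psmb8 and Nlrc5 sit above all controls, and the Ago2-IP groups of every member overlap.

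H2-K1 and H2-D1 encode the classical heavy chains that bind the peptide. H2-K1 (ENSMUSG00000061232, chr17:33996017-34000333) had 118, 111, 117 and 131 normalized CPM in the polyA control libraries and 148, 233, 194 and 217 in the miR-106b libraries. The groups did not overlap, and replicate 1 was the lowest miR-106b library. H2-K1 rose by a log2 fold change of 0.73 (SE 0.14, edgeR adjusted p = 0.0014). H2-D1 (ENSMUSG00000073411, chr17:35262730-35267499) had 215, 181, 180 and 208 normalized CPM in controls and 221, 352, 296 and 350 with miR-106b. Here replicate 1 exceeded the highest control by little, while the other three stood well above. H2-D1 rose by 0.64 on the log2 scale (SE 0.15, edgeR adjusted p = 0.0045). Of the 50-base sequences in their annotated transcripts, 9.63% for H2-K1 and 12.8% for H2-D1 also occurred in transcripts of other genes, so part of their 50-base reads could not be assigned to 1 class I gene.

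B2m, the invariant light chain of every class I molecule, did not pass the test. B2m (ENSMUSG00000060802, chr2:122147686-122153083) had 191, 212, 195 and 201 normalized CPM in polyA controls and 237, 218, 189 and 240 with miR-106b. One miR-106b library, replicate 3, was lower than every control. The log2 fold change was 0.15 (95% CI -0.09 to 0.38, edgeR adjusted p = 0.302). Per kilobase of exon, B2m was the highest member in every group, at 232 ± 10.7 normalized CPM per kb in polyA controls (SD, n = 4), against 75.9 ± 7.06 for H2-D1 and 40.5 ± 2.86 for H2-K1. The exon length was that of all annotated exons of a gene joined (GENCODE M21), which can exceed the length of a single transcript.

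The transporter is a dimer of Tap1 and Tap2, and its subunits differed in their calls. Tap2 (ENSMUSG00000024339, chr17:34203527-34216321) had 25.2, 22.9, 21.1 and 29.4 normalized CPM in polyA controls and 30.02, 41.2, 35.3 and 41.9 with miR-106b. All miR-106b libraries were above the controls, replicate 1 only just. Tap2 rose by 0.59 on the log2 scale (SE 0.15, edgeR adjusted p = 0.0076). Tap1 (ENSMUSG00000037321, chr17:34187553-34197225) had 23.7, 23.9, 24.1 and 27.1 normalized CPM in controls and 29.3, 26.2, 25.9 and 28.9 with miR-106b. Control replicate 4 lay above 2 of the miR-106b libraries. The log2 fold change was 0.16 (95% CI -0.10 to 0.42, edgeR adjusted p = 0.316). Tap1 overlaps Psmb9 over 212 bases in the deposited loci, and 11.6% of the 50-base sequences of Tap2 also occurred in other transcripts, mostly of the antisense model Gm15821, so that these reads could not be told apart without strand.

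Tapbp (ENSMUSG00000024308, chr17:33915899-33929288), the tapasin that bridges class I and TAP, had 175, 159, 163 and 201 normalized CPM in polyA controls and 298, 206, 198 and 277 with miR-106b. Replicate 1, the lowest miR-106b library of the heavy chains, was the highest for Tapbp, and replicate 3 overlapped the controls. Tapbp rose by 0.49 (SE 0.15, edgeR adjusted p = 0.0173). The call was lost without polyA control replicate 2 (adjusted p = 0.0636) or polyA miR-106b replicate 4 (0.0504), over a range of 0.000118 to 0.0636 in all settings tried. Tapbp shares 3421 bases with the gene Zbtb22 in the deposited loci. Of the 50-base sequences of Tapbp, 23.2% also occurred in other transcripts, mostly of the antisense model Gm19412, which had 23 counts over all libraries.

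Psmb8, Psmb9 and Psmb10 replace the catalytic subunits Psmb5, Psmb6 and Psmb7 when the immunoproteasome is built. Psmb8 (ENSMUSG00000024338, chr17:34197721-34201454) had 6.17, 5.25, 8.10 and 7.0 normalized CPM in polyA controls and 10.5, 17.7, 11.6 and 23.4 with miR-106b. The groups were apart, and the miR-106b libraries were spread over a wide range. Psmb8 rose by 1.23 (SE 0.26, edgeR adjusted p = 0.0027). Psmb9 (ENSMUSG00000096727, chr17:34181988-34187764) had 5.69, 3.15, 3.30 and 4.37 normalized CPM in controls and 5.82, 13.6, 8.83 and 11.1 with miR-106b. Its replicate 1 was only just above the highest control, and it was the member with the fewest counts, between 22 and 75 a library. Psmb9 rose by 1.25 (SE 0.30, edgeR adjusted p = 0.0050). Psmb10 (ENSMUSG00000031897, chr8:105935728-105938392) had 38.6, 33.4, 38.7 and 39.2 normalized CPM in controls and 47.9, 59.9, 47.5 and 72.3 with miR-106b. No libraries overlapped, and the rise was 0.60 (SE 0.14, edgeR adjusted p = 0.0058). For Psmb8, 11.9% of the 50-base sequences also occurred in other transcripts, and for Psmb10 none did.

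Nlrc5 (ENSMUSG00000074151, chr8:94472763-94527272) had 6.80, 5.04, 3.90 and 4.37 normalized CPM in polyA controls and 9.86, 17.7, 11.6 and 11.9 with miR-106b. All miR-106b libraries were above the controls, with between 25 and 81 counts a library over the whole series. It had the largest rise of the members, 1.34 (SE 0.25, edgeR adjusted p = 0.0012). Per kilobase of exon it was the lowest member in every group, at 0.592 ± 0.150 normalized CPM per kb in polyA controls and 1.5 ± 0.400 with miR-106b. On this scale the order in polyA controls was B2m, H2-D1, Tapbp, H2-K1, Psmb10, Tap2, Tap1, Psmb8, Psmb9 and Nlrc5, where the libraries of Tapbp and H2-K1 and of Psmb8 and Psmb9 overlapped. The order was the same with miR-106b, where Tap1 and Psmb8 and Psmb9 and Nlrc5 overlapped as well. In Ago2-IP RNA of both transfections the mean of H2-K1 stood above that of Tapbp and the mean of Psmb8 above that of Tap1, and after miR-106b the libraries of Psmb8 and Tap1 overlapped. These orders rest on the joined exon lengths, such as 3381 bases for Psmb8, 3660 for Psmb9 and 5476 for Tap1. Lengths of single transcripts could give other orders.

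Cell type markers moved with the members in the same polyA libraries. The summed level of the 10 members was 761 to 856 CPM in polyA controls and 1017 to 1219 CPM with miR-106b. The summed CPM of 18 macrophage and leukocyte markers was 428 to 600 in controls and 810 to 1374 with miR-106b, that of 6 class II genes 132 to 176 and 254 to 428, and that of 12 endothelial markers 587 to 810 and 953 to 1766. The summed heart muscle level was 21153 to 30131 CPM in controls and 41289 to 71489 CPM with miR-106b. By the edgeR test 17 of 18 leukocyte, 5 of 6 class II, 11 of 12 endothelial and 18 of 19 tested heart muscle markers rose, with median log2 fold changes of 1.21, 1.31, 1.23 and 1.23. Of 10 tested juxtaglomerular and mural markers 6 rose and 2 fell, Tagln (-0.48, edgeR adjusted p = 0.0198) and Nes (-1.08, 0.0080), with a median of 1.01. The summed level of their list was 2909 to 3134 CPM in controls and 3622 to 4563 CPM with miR-106b. Des had the most counts of this list, 185278 over all libraries, so the sum followed Des most. Psmb8, Psmb9 and Nlrc5 changed by values close to these medians, and the other 7 members by less. The part of these cell types in the members' change was not tested.

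**Figure D2:**
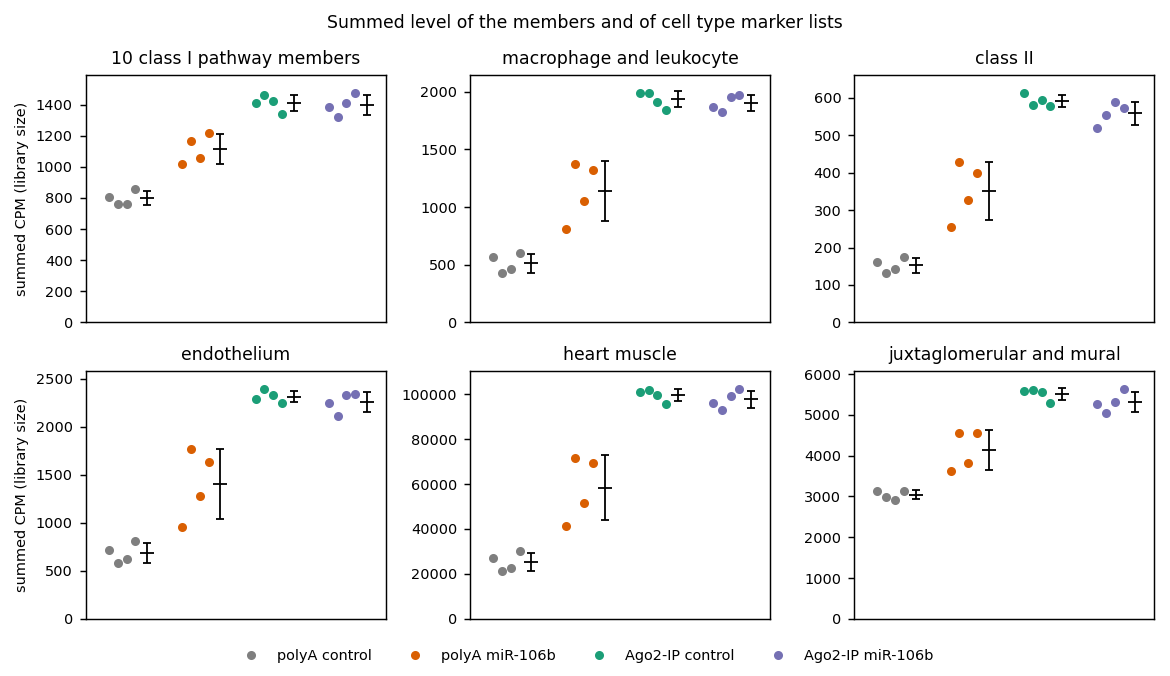
Summed CPM, scaled by library size, of the 10 members and of the 5 marker lists in each library (points), with the mean and SD of 4 libraries as a bar. All 6 sums were lowest in polyA control libraries, higher in polyA miR-106b libraries and highest in Ago2-IP libraries, and polyA miR-106b replicate 1, the first point of its group, was the lowest of its group in each. Of the juxtaglomerular and mural list, Des had the most counts.

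In Ago2-IP RNA none of the 10 members changed with miR-106b, and by the same edgeR test 0 of all 14897 genes (0%) did. At an unadjusted p under 0.05, 826 genes and no member were found, and DESeq2's Wald test called 2 genes, neither of them a member. The count over all genes rested on single libraries: leaving out replicate 4 of the miR-106b group gave 39 genes, leaving out its replicate 1 gave 4, leaving out control replicate 4 gave 9, and leaving out any other gave 0, and no member was called in any of these fits. The members' log2 fold changes ran from -0.15 for Psmb9 to 0.08 for B2m, with a median of 0.01. All 10 members had overlapping groups. H2-K1 had 315, 332, 311 and 289 normalized CPM in Ago2-IP controls and 298, 280, 311 and 305 with miR-106b. Its 95% CI, -0.16 to 0.04, did not reach the rise seen in polyA RNA. H2-D1 ran from 450 to 471 normalized CPM in Ago2-IP controls and from 422 to 488 with miR-106b, and B2m from 191 to 232 and from 204 to 245. Of the loading genes, Tap1 ran from 33.9 to 37.0 and from 34.6 to 39.5, Tap2 from 44.2 to 47.9 and from 42.7 to 53.2, and Tapbp from 201 to 216 and from 195 to 223. Psmb8 ran from 23.2 to 29.99 in controls and from 21.3 to 29.5 with miR-106b, and Psmb10 from 75.3 to 80.3 and from 74.3 to 83.7. No group of these stood apart from its partner. For Nlrc5, with 16.5, 18.8, 18.6 and 17.7 normalized CPM in controls and 17.5, 16.7, 22.3 and 18.7 with miR-106b, the interval was wider, -0.25 to 0.38. Psmb9 had 18.5, 18.8, 15.4 and 16.4 normalized CPM in controls and 15.1, 15.8, 15.8 and 15.2 with miR-106b, and its interval was -0.48 to 0.18.

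**Figure D3:**
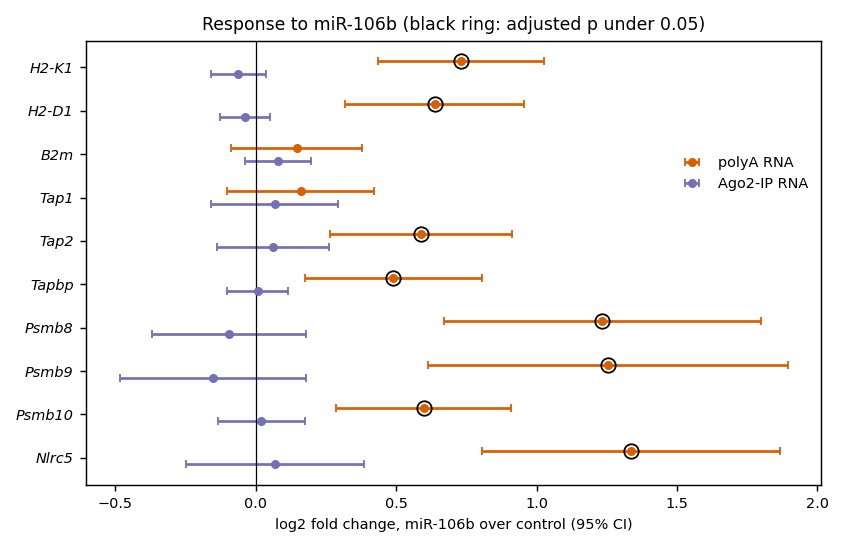
Log2 fold change of each member with miR-106b over control in polyA RNA and in Ago2-IP RNA, with 95% confidence intervals from edgeR, and a black ring where the adjusted p was under 0.05. The 8 ringed polyA values lie between 0.49 (Tapbp) and 1.34 (Nlrc5), and every Ago2-IP interval includes 0.

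The difference between the responses was tested as the change of the Ago2:polyA ratio in 1 model of all 16 libraries. The ratio fell for 8 members, all but B2m and Tap1, where 19.7% of all genes fell. The median change was -0.77 on the log2 scale, against -0.07 over all genes. The median of all genes depended on the scaling, at 0.10 with library size alone and 0.08 with TMM within each kind of RNA. In the same test 18 of 19 heart muscle, 15 of 18 leukocyte, 10 of 12 endothelial and 5 of 6 class II markers fell, with medians of -1.40, -1.37, -1.43 and -1.53, and their part in the members' fall was not tested. The largest falls were those of Psmb9 (-1.55, SE 0.32, edgeR adjusted p = 0.00066), Psmb8 (-1.47, SE 0.29, 0.00042) and Nlrc5 (-1.41, SE 0.28, 0.00049). H2-K1 fell by 0.94 (SE 0.15, edgeR adjusted p = 6.89e-05) and H2-D1 fell by 0.82 (SE 0.16, 0.00050). The values of B2m, -0.21 (SE 0.14), and Tap1, -0.24 (SE 0.15), did not pass (edgeR adjusted p = 0.256 and 0.266). Over 24 other settings B2m ran from -0.29 to -0.041 and Tap1 from -0.28 to -0.068, and neither was called in any. This comparison uses the same polyA libraries as the polyA comparison and is not separate evidence.

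The last comparison set Ago2-IP against polyA RNA within each transfection. In control cells all 10 members were higher in Ago2-IP RNA, as were 35.1% of all genes, with a median log2 difference of 1.45 against -0.03 over all genes. Psmb9, Psmb8 and Nlrc5 had the largest differences: Psmb9 was 2.38 higher (SE 0.22), Psmb8 2.33 (SE 0.20) and Nlrc5 2.13 (SE 0.20) on the log2 scale, with edgeR adjusted p between 3.71e-10 and 1.32e-09. The heavy chains H2-K1 and H2-D1 were 1.69 (SE 0.11) and 1.54 (SE 0.12) higher. Psmb10 was 1.36 (SE 0.11), Tap2 1.23 (SE 0.13) and Tap1 0.81 (SE 0.11) higher. Tapbp, at 0.56 (SE 0.11), and B2m, at 0.38 (SE 0.10, edgeR adjusted p = 0.0012), were the least enriched members. Scaling by library size alone moved the median of all genes to -0.35, and B2m was then at 0.06 (adjusted p = 0.568), 0.41 above that median. Tapbp was then at 0.24 (edgeR adjusted p = 0.0436) and Tap1 at 0.50, and TMM within each kind of RNA gave 0.25 (0.0453) and 0.51. The other 9 members passed the test under each scaling.

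After miR-106b transfection, 8 of 10 members were higher in Ago2-IP RNA, against 21.9% of all genes, with a median log2 difference of 0.68. The 2 exceptions were B2m (0.16, 95% CI -0.04 to 0.36, edgeR adjusted p = 0.177) and Tapbp (-0.07, 95% CI -0.30 to 0.17, 0.652). The differences of the others ran from 0.56 (SE 0.13) for Tap2 to 0.86 (SE 0.20) for Psmb8. For Tap1, at 0.57 (SE 0.11), the change from control cells did not pass the test given above, and for the other 7 it did. Every Ago2-IP library was above every polyA library for all 10 members in control cells (33.0% of all genes) and for 8 after miR-106b (18.2% of all genes). These counts depended on the scaling. With libraries scaled within each kind of RNA they were 8 in control cells (26.3% of all genes), without B2m and Tapbp, and 6 after miR-106b (12.8% of all genes), without B2m, Tapbp, Psmb8 and Nlrc5. The summed levels of the marker lists held the same order. Of the heart muscle markers, 18 of 19 were higher in Ago2-IP RNA in both transfections, with medians of 2.29 and 0.89, and their part in the members' differences was not tested.

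**Figure D4:**
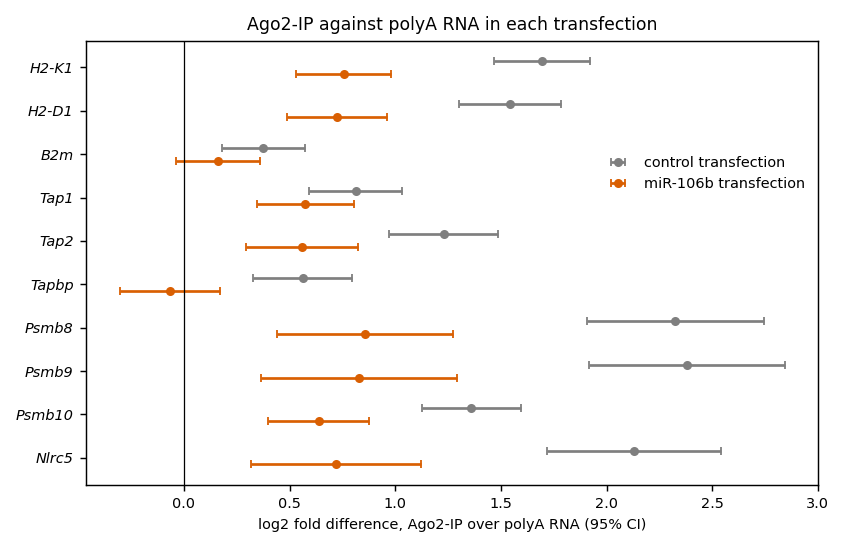
Log2 difference between Ago2-IP and polyA RNA for each member in control and in miR-106b transfections, with 95% confidence intervals from the edgeR model of all 16 libraries. Psmb9, Psmb8 and Nlrc5 lie above 2 in controls and below 1 after miR-106b, and B2m and Tapbp lie nearest 0.

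Ratios of partner subunits within a library do not depend on the scaling of libraries. The ratio of Psmb8 to its constitutive partner Psmb5 averaged -3.65 ± 0.33 in polyA controls and -2.46 ± 0.56 with miR-106b (log2 of counts plus 1, SD, n = 4), a difference of 1.19 with no overlap (two-sided exact permutation p = 0.0286, and no lower p can be reached with 4 libraries a group). Psmb9 to Psmb6 differed by 1.07, with 3 of 4 miR-106b libraries above all controls (exact permutation p = 0.0571). Psmb10 to Psmb7 differed by 0.59 with no overlap (exact permutation p = 0.0286). Psmb5, Psmb6 and Psmb7 themselves changed by -0.0022, 0.15 and -0.01 and did not pass the edgeR test (adjusted p = 0.989, 0.231 and 0.942). H2-K1 to B2m differed by 0.57 and H2-D1 to B2m by 0.48, each with 3 of 4 miR-106b libraries above the controls (exact permutation p = 0.0571 and 0.0857). Tap1 to Tap2 differed by -0.43 (exact permutation p = 0.0857). In Ago2-IP RNA the differences ran from -0.14 for H2-K1 to B2m (exact permutation p = 0.0571) to 0.01 for Tap1 to Tap2 (0.943). Over these 12 tests no ratio passed after Benjamini-Hochberg adjustment, the smallest adjusted value being 0.137.

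**Figure D5:**
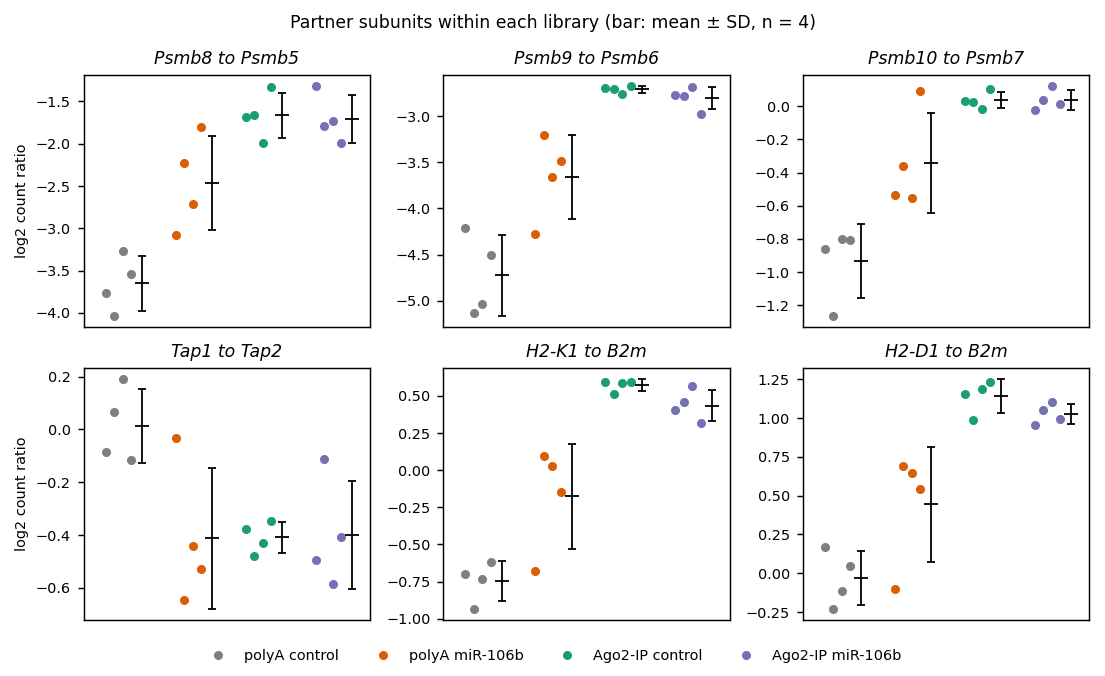
Log2 ratio of the counts of partner subunits in each library (points), with the mean and SD of 4 libraries as a bar. The polyA miR-106b libraries of Psmb8 to Psmb5 and Psmb10 to Psmb7 lie above all polyA controls, and Ago2-IP libraries of both transfections overlap in every ratio.

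Of 13 tested genes among nonclassical and related class I genes, 6 rose in polyA RNA, none fell and 7 did not pass, with a median log2 fold change of 0.73, where 19.0% of all genes rose. The leukocyte, class II, endothelial and heart muscle markers given above rose in the same polyA libraries, with medians of 1.21 to 1.31, and their part in this list's values was not tested. H2-Q6 rose by 1.22 (edgeR adjusted p = 0.0077), H2-Q4 by 0.89 (0.0026), Hfe, a regulator of iron uptake, by 1.11 (0.0033), and Fcgrt, the neonatal Fc receptor, by 0.92 (0.00080). H2-Q4 shared 78 and H2-Q6 46 of the 3457 different 50-base sequences of H2-K1, and they shared 67 and 111 of the 2591 of H2-D1, so these genes may share reads. Fcgrt and Hfe pair with B2m as the heavy chains do. Mr1, which presents vitamin metabolites, and H2-T22 were at -0.02 and 0.10 (edgeR adjusted p = 0.949 and 0.619), named after their values were seen. Fcgrt went from 58.5 ± 7.36 to 111 ± 22.5 normalized CPM (SD, n = 4).

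Of 15 tested genes of the loading complex and of peptide trimming, none rose, 8 fell and 7 did not pass, with a median of -0.43, where 19.0% of all genes rose and 21.5% fell, with a median of -0.05. The heart muscle, leukocyte and endothelial markers rose in the same libraries, and their part in the lower values of this list and of the proteasome list below was not tested. Canx and Pdia3, the lectin chaperone and the disulfide isomerase of class I assembly, fell by 0.51 and 0.50 on the log2 scale (edgeR adjusted p = 0.0046 and 0.0078). Calr was at -0.25 (adjusted p = 0.174) and the aminopeptidase Erap1 at 0.17 (0.658), and neither passed. Lnpep, an aminopeptidase of endosomes, fell by 0.76 (edgeR adjusted p = 0.0062), the largest fall of the list. Thop1 fell by 0.72 and Tpp2 fell by 0.67, both peptidases of the cytosol, and Ganab, a glucosidase that trims glycans in the endoplasmic reticulum, fell by 0.56.

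Of 19 proteasome core and activator genes other than the members, 1 rose, 6 fell and 12 did not pass, with a median of -0.23, beside the same 19.0% and 21.5% of all genes. The one that rose was Psme1, a subunit of the interferon-inducible activator that caps the proteasome, from 51.8 ± 5.0 to 80.4 ± 8.10 normalized CPM (log2 fold change 0.63, SE 0.12, edgeR adjusted p = 0.0013). Psme2, its partner, was at 0.19 (adjusted p = 0.301). The core subunits Psma3, Psmb3 and Psma2 fell by 0.79, 0.52 and 0.46.

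Among 31 regulators of class I transcription, 6 rose, 6 fell and 19 did not pass, with a median of -0.03. These counts are near the background of all genes, 19.0% higher and 21.5% lower, and are no result about the list. Irf2 rose by 0.30 (edgeR adjusted p = 0.0417). Irf8, a factor of myeloid cells, rose by 1.05 (0.0104). Irf1, the interferon-inducible factor of class I promoters, was at 0.28 (0.122), and the RFX subunits Rfx5, Rfxap and Rfxank were at -0.35, 0.22 and 0.29, none of which passed (0.0786, 0.42 and 0.186). Nfkb2, Creb1 and the histone methyltransferase Ezh2 fell by 0.76, 0.65 and 1.17. Of 36 interferon-stimulated genes, 22 rose and none fell, with a median of 0.82, where 19.0% of all genes rose. In the same polyA libraries 17 of 18 leukocyte, 5 of 6 class II and 11 of 12 endothelial markers rose, and their part in this list was not tested. Among those that averaged 5 CPM or more in polyA RNA, the largest rises were those of Oasl2 (1.33), Gbp3 (1.31), Oas2 (1.29) and Igtp (1.26). In Ago2-IP RNA no gene of these 5 lists passed.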

How the data were processed

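Counts of single-end 50 bp reads per gene were deposited for 16 libraries (4 a group). The authors removed rRNA reads, aligned the rest to GRCm38 with TopHat2 (2.0.10 in the submitters' processing notes), counted reads per gene with HTSeq without regard to strand, and deposited raw counts that were not normalized. Members and lists were chosen with earlier results of these data known. Loci are those of the deposited table with 1 added to the start.

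A gene was kept if 3 or more of the 4 replicates in some group had 1 CPM or more. The counts were fitted with edgeR 4.0.16 (TMM scaling, robust quasi-likelihood F test, prior count 0.125) in R 4.3.3, in the 8 libraries of 1 kind of RNA or, for Ago2:polyA comparisons, in all 16, with Benjamini-Hochberg adjustment over 14897 genes. A call is an adjusted p under 0.05. Normalized CPM were scaled by TMM within each kind of RNA. P-values measure the spread between replicate libraries, which the study calls biological replicates and the labels do not tie to separate cultures.

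Subunit ratios were compared by exact permutation of 4 against 4 libraries. The genes named from each list were the 4 called in polyA RNA with the largest change and a mean of at least 5 CPM, besides a fixed set of partner genes and regulators, and Mr1, H2-T22, Tagln and Nes were named after their values were seen. No pairing of libraries by replicate number was seen, which does not exclude it. DESeq2 1.42.0, other scalings and filters, and leaving out each library were tried.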

Additional observations from a re-analysis of the deposited data

Results flagged for a closer look

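For 8 members the response to miR-106b differed between the kinds of RNA by the test of the difference itself (edgeR, 16 libraries, adjusted p under 0.05), in each case lower in Ago2-IP RNA, as it was for 19.7% of all genes. The effect in Ago2-IP RNA minus that in polyA RNA was -0.94 for H2-K1, -0.82 for H2-D1, -0.67 for Tap2, -0.63 for Tapbp, -1.47 for Psmb8, -1.55 for Psmb9, -0.72 for Psmb10 and -1.41 for Nlrc5 on the log2 scale. The heart muscle, leukocyte and endothelial markers moved the same way in the same libraries, and their part was not tested.

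Among 40 groups of 4 libraries, 2 had a library far from the other three, and chance gives about 1 in 20 groups. Tap1 stood at 27.1 normalized CPM in polyA control replicate 4, where the other controls had 23.7 to 24.1. Psmb10 stood at 33.4 normalized CPM in polyA control replicate 2, where the others had 38.6 to 39.2. Both are control libraries, and neither member's call changed without them.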

How the results depend on the processing

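The number of members called stayed within 1.5 times the reported number in all 5 comparisons under every setting tried, which covered scaling, filter, test, replicate block and leaving out each library. In polyA RNA it was 8 to 10 over 8 other settings and 7 to 8 without single libraries, and it was 8 with a replicate block. B2m (0.27) and Tap1 (0.29) were called there only when all 16 libraries shared 1 fit. The replicate block changed no member's call. No pairing by replicate number was seen: over 16 pairs of same-numbered libraries the correlation of their deviations ran from -0.38 to 0.22. These values do not exclude shared cultures. With no filter on low counts, Tap2 missed the threshold for the ratio change (-0.53). In the Ago2-IP comparison of control cells B2m missed it with library size scaling (0.06), with TMM within each kind of RNA (0.07) and with no filter (0.20).

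Signs turned only in values that passed no test. In Ago2-IP RNA Tapbp was -0.0081 with no filter and -0.014 in the fit of 16 libraries, Psmb10 was -0.00050 in that fit, and B2m was -0.00016 for Ago2-IP against polyA after miR-106b with TMM within each kind. Without single libraries Tapbp ran from -0.030 to 0.040, Psmb10 from -0.0091 to 0.050 and Nlrc5 from -0.023 to 0.13 in Ago2-IP RNA, and Tapbp from -0.16 to 0.050 for Ago2-IP against polyA after miR-106b. The Ago2-IP ratios ran from -0.17 to 0.070 for Psmb8 to Psmb5, -0.027 to 0.024 for Psmb10 to Psmb7 and -0.087 to 0.070 for Tap1 to Tap2. The causes were not tested. Depth limits Psmb8, Psmb9 and Nlrc5 most, with as few as 39, 22 and 25 counts a library.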

Other observations

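No member was among the 3 genes whose pattern over the 16 libraries was most like that of another member. Likeness was the root mean square difference of centred log2 CPM over the 16 libraries, among the 9989 genes that averaged 5 CPM or more in each kind of RNA. Few of these genes are members, so their absence from the nearest 3 says little about whether the members moved alike. For H2-K1 the nearest were Glul (0.06), Fyco1 (0.06) and Sik1 (0.06), and the nearest member, H2-D1, ranked 33. For H2-D1 they were Vldlr, Zfp106 and Aldoa, and H2-K1 ranked 27. For Psmb9 they were Ctss, the lysosomal protease cathepsin S of antigen presenting cells (0.10), Ptprb, an endothelial phosphatase (0.11), and Ace (0.11). Psmb9 lay nearer to the heart muscle gene Myh6 (0.15) than to any member (0.22), and so did Psmb8 (0.20 against 0.26). Every other member lay nearer to a member than to Myh6, from H2-K1 (0.09 against 0.28) to Nlrc5 (0.22 against 0.24). No other marker gene was compared in this way, and what set these distances was not tested. The nearest genes were Cacna1h, Mlxipl and Scn4b for Psmb8 and Afg3l2, Ankrd40 and Hspb8 for Psmb10. For Nlrc5 they were Mlf1, Tmem204 and Lgals4, each at a distance of 0.18 from Nlrc5. Tap2 was nearest to Stom, Lamb2 and Rbm20, Tap1 to Itpr1, Btbd1 and Slc6a8, Tapbp to Dag1, Ahdc1 and Pbxip1, and B2m to Obsl1, Clptm1 and Fbrs. The nearest member ranked 98 for Tap2, 122 for Nlrc5, 201 for Tapbp, 204 for Psmb10, 597 for B2m, 608 for Psmb9, 681 for Psmb8 and 1038 for Tap1.

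Tap1 and Psmb9 share the stretch between their starts, and their ratio was compared after their values had been seen. The log2 ratio of Psmb9 to Tap1 averaged -2.58 ± 0.39 in polyA controls and -1.52 ± 0.57 with miR-106b (SD, n = 4), a difference of 1.06 with 3 of 4 miR-106b libraries above all controls (exact permutation test, two-sided, p = 0.0571). In Ago2-IP RNA the difference was -0.21 (exact permutation p = 0.114). For the neighbours Psmb8 and Tap2 the polyA difference was 0.60 (exact permutation p = 0.0857). Psmb9 and Tap1 overlap over 212 bases in the deposited loci, and reads there could not be told apart without strand.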
